A study of Mus musculus with 8 samples.

Results

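Regions of chromatin whose accessibility was lower in every library after induced knockout of Bmal1 were described in mouse gastrocnemius, a calf muscle. They were chosen from the deposited ATAC-seq table by the measured values themselves. A region on chromosomes 1 to 19 was taken where the highest of 4 iMSBmal1KO values lay below the lowest of 4 vehicle values, the vehicle mean was at least 20 and the ratio of the iMSBmal1KO mean to the vehicle mean was at most 0.6. This gave 845 loss regions of the 489637 regions in the table. ATAC-seq marks open DNA by letting a transposase insert sequencing adapters into it. All 8 mice were 6 months old and of the genotype Cre+:iMSBmal1 fl/fl, in which the Bmal1 gene carries recombination sites and can be removed by an inducible Cre. 4 received vehicle and keep the gene by design, and 4 received Tamoxifen and are labelled iMSBmal1KO. Each library came from nuclei of 2 whole gastrocnemius muscles, so fibre nuclei and nuclei of other cells were measured together. The promoter that drives Cre, the time of day and the interval after Tamoxifen are not given in the sources used here. Tamoxifen and the loss of the gene cannot be told apart, since no group received Tamoxifen without the floxed gene.

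BMAL1 is a transcription factor of the circadian clock that pairs with CLOCK and binds the E-box, the letters CACGTG, at promoters and distant enhancers. The pair drives genes for its own repressors, among them the Per, Cry and Nr1d genes and Ciart, and genes for output factors such as Dbp, whose protein binds the D-box. In skeletal muscle the clock is known to regulate glucose uptake and sarcomere genes.

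The promoters that loss regions covered are shown because they place the lower signal on named sequence. A promoter window runs from 250 bases before to 50 bases after a RefSeq transcription start (assembly GRCm38.p6). Of the loss regions, 17 (2.01%) overlapped such a window, against 10167 (17.2%) of the 59191 autosomal regions with a vehicle mean of at least 20, which are called eligible regions below. These 17 touched 18 windows of 17 genes. The window of Ciart, which encodes a repressor of BMAL1 and CLOCK, lay whole inside a loss region. It held 3 copies of the E-box, which begin 116, 58 and 44 bases before the start. A D-box of the form TTATGTAA, read on either strand, was found in 3 windows, inside the overlap with the loss region each time. These belonged to the predicted gene Gm34098 (18 bases before its start), to the RNA gene A530013C23Rik (46 bases before) and to R3hdm2 (17 bases after). The stretches below are from RefSeq, each on the strand of its gene and 5′ to 3′, with the E-box or D-box in capitals. They are the 250 bases before the start for Ciart, the overlapped bases before the start for Gm34098 and A530013C23Rik, and 30 bases around the D-box for R3hdm2.
Ciart promoter, chr3:95882229-95882478, minus strand: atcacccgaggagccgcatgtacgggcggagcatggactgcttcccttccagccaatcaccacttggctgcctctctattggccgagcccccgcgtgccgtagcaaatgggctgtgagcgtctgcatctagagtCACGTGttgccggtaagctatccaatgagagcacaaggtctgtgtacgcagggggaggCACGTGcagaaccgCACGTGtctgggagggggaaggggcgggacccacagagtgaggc
Gm34098 promoter, chr1:80244274-80244378, plus strand: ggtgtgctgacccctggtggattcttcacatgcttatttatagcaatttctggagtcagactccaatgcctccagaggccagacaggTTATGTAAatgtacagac
A530013C23Rik promoter, chr2:167691091-167691176, plus strand: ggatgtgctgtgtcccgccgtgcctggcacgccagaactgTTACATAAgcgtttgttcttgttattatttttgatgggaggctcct
R3hdm2 start, chr10:127420873-127420902, plus strand: gtcctgtgtctTTATGTAActgtccctact

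Set against other promoters of the same length, the E-box was in 1 of the 18 windows (5.56%), in 10.8% of the 10989 windows at eligible regions and in 7.14% of all 31365 autosomal windows. The D-box form TTATGTAA was in 3 of 18 (16.7%), 0.355% and 0.953% respectively. The GC box GGGCGG was in 33.3% of the windows at loss regions, 68.3% of those at eligible regions and 36.0% of all. The TATA box letters TATAAA were in 22.2%, 5.82% and 13.6%, and the nuclear receptor half-site AGGTCA in 5.56%, 11.7% and 16.3%. The related form TTATGCAA, the AP-1 site TGACTCA and a MEF2 site were in none of the 18. Every motif was searched on both strands, and a window could hold several. The windows at loss regions had a median GC content of 55.5% and 7.5 CpG dinucleotides, against 62.3% and 23 at eligible regions and 53% and 7 over all. Shares refer to whole windows, whose overlap with a loss region ran from 15 bases (Zfp367) to all 300 (Ciart and a window of Gm41638). A motif in a window may thus lie outside the loss region. These are descriptions of few windows, and a match of letters is not a measured binding site.

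The signal at Ciart was 1113, 809, 970 and 610 in vehicle libraries 1 to 4 and 479, 543, 450 and 465 in iMSBmal1KO libraries 1 to 4. The lowest vehicle library therefore stood above the highest iMSBmal1KO library, and the means were 875 ± 216 and 484 ± 40.8 (SD, n = 4 each), 1.81-fold lower after knockout. The loss region spans chr3:95882039-95883055 and is annotated as a transcription start. At the start of Gm34098 the table lists an intergenic region, chr1:80244274-80244541, with 78.9, 79.1, 71.2 and 46.9 in vehicle and 23.5, 24.3, 31.0 and 27.6 in iMSBmal1KO. At A530013C23Rik the values were 173, 176, 151 and 116 against 82.2, 97.8, 79.9 and 97.4. At R3hdm2 they were 43.7, 20.5, 18.4 and 31.3 against 14.1, 11.7, 16.7 and 11.3, so here the groups nearly met.

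Over all 845 loss regions the signal after knockout was between 1.67 and 8.24 times lower than in vehicle, with a median of 2.07. Most losses were moderate. 472 regions (55.9%) were at least 2-fold lower, 113 (13.4%) at least 3-fold, 38 at least 4-fold and 14 at least 5-fold. The median vehicle mean was 32.0, with a range of 20.01 to 1576, and 239 regions reached 50, 101 reached 100, 42 reached 200 and 10 reached 500. Added up over the 845 regions, signal came to 55892, 49856, 55870 and 53829 in vehicle and to 22277, 25189, 24532 and 26328 in iMSBmal1KO. The direction and the separation are what the rule asked for, so these values carry no test. The eligible regions as a whole did not share the direction, since their median signal was 50.1, 53.4, 47.7 and 40.6 in vehicle and 54.8, 56.0, 47.7 and 51.4 in iMSBmal1KO.

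**Figure D1:**
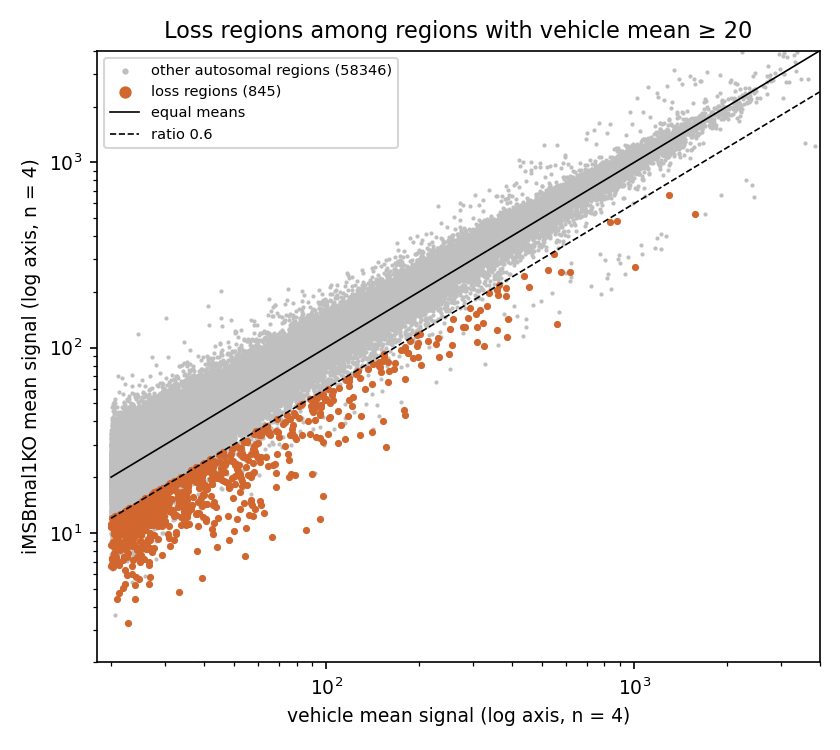
Mean signal in vehicle (horizontal, log axis) against mean signal in iMSBmal1KO (vertical, log axis) for autosomal regions with a vehicle mean of at least 20, each mean over 4 libraries, with regions beyond the axes not drawn. The 845 loss regions, in orange, lie below the dashed line of a ratio of 0.6 and crowd toward the low end, with a median vehicle mean of 32.0.

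The loss regions were 1.43% of the 59191 eligible regions, and 1477 eligible regions (2.5%) had groups that did not overlap in this direction, whatever the ratio. The mirror rule, which asks for the same separation and size of change upward and an iMSBmal1KO mean of at least 20, took 1592 of 62462 regions (2.55%). Among regions with that iMSBmal1KO mean, 3256 (5.21%) were separated upward. The balance of the rules depends on how libraries are scaled. With libraries scaled to equal autosomal totals there were 1442 loss regions, 827 of them among the 845, and 890 gain regions, so that losses made up 61.8% of both in place of 34.7%. Leaving out a library also loosens the rule, because fewer values must separate. The count was 1592 without vehicle library 2, 1359 without vehicle library 4 (706 of them among the 845), beside 1270 gain regions or 51.7% losses, and 1279 without iMSBmal1KO library 4.

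A region needed little signal to qualify. In the vehicle library with the fewest reads at each loss region, the signal stood for 3 to 634 reads, with a median of 11. In 337 regions it stood for fewer than 10. The library with the fewest reads need not have the lowest signal, since depth differed between libraries. The lowest vehicle value exceeded the highest iMSBmal1KO value by a median factor of 1.20, with a range of 1.00 to 5.21. The share of eligible regions that met the rule was 2.17% at vehicle means of 20 to 30, 1.67% at 30 to 50, 1.40% at 50 to 100, 0.861% at 100 to 200 and 0.364% above. The coefficient of variation between libraries had a median of 24.4% in vehicle and 25.5% in iMSBmal1KO at loss regions, against 26.4% and 20.3% at eligible regions. Loss regions were short, with a median length of 161 bp against 208 bp for eligible regions and 159 bp for the gain regions.

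The targeted gene itself, listed as Arntl, held 0 loss regions among 15 eligible ones and 6 gain regions. The mirror rule took 2.55% over all. The 82 Arntl regions added up to 2688, 2248, 2557 and 1942 in vehicle and 3023, 3421, 3154 and 3315 in iMSBmal1KO, higher after knockout. Accessibility over the gene does not check the deletion, since the floxed exon is not given in the sources used here. The libraries held 4.31 to 19.7 M read equivalents (M, units of 1e+06) in vehicle and 11.2 to 29.5 M in iMSBmal1KO, and vehicle library 4 was the shallowest. Its mitochondrial share was 16.5%, against 2.26% to 5.51% in the other vehicle libraries and 1.11% to 3.06% in iMSBmal1KO. Vehicle library 4 gave the lowest vehicle value in 287 loss regions and the highest in 236, while the others gave the lowest in 160 to 233 and the highest in 139 to 246. A limma fit on log2(signal + 1) over 130084 regions called 70 lower (0.0538%) and 39 higher (0.03%) at a Benjamini-Hochberg adjusted p under 0.05. Of the 842 loss regions that the fit covered, 69 were called lower. Since the rule used the same values, nothing is read from this count. The number called lower in the whole fit moved from 70 to 16 without vehicle library 1, 19 without vehicle library 3, 30, 29 and 44 without iMSBmal1KO libraries 2, 3 and 4, and 171 without vehicle library 4. The number called higher ran from 8 without iMSBmal1KO library 2 to 84 without vehicle library 4, and without vehicle library 2 there were 48 lower and 80 higher.

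The steepest loss lay in Rptor, which encodes Raptor, the scaffold of the growth-regulating kinase complex mTORC1. This region, chr11:119811098-119811426, is annotated as a transcription start. Its signal was 83.1, 78.1, 97.9 and 84.4 in vehicle and 8.56, 8.36, 5.96 and 18.8 in iMSBmal1KO, 8.24-fold lower in the mean. Different starts are listed for Rptor, since its region at chr11:119859357-119859728 is given as 255659 bp from a start. The steep loss is therefore not placed at the main promoter. Of the 56 other tested Rptor regions 24 had a negative log2 change, with a median of 0.07. An intron 2 region of Syne1, chr10:5190823-5190964, followed. Syne1 encodes nesprin-1, which anchors nuclei to the cytoskeleton in muscle fibres. It went from 74.6, 88.4, 137 and 81.3 to 11.1, 13.4, 14.3 and 8.78, 8.01-fold lower. A 5′ UTR exon region of Slc2a3, the gene of the glucose transporter GLUT3, chr6:122801169-122801256, had 53.3, 60.6, 68.6 and 34.4 against 5.99, 11.7, 5.96 and 6.27, 7.25-fold lower. In all of these the lowest vehicle library was at least 2-fold above the highest iMSBmal1KO library.

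A transcript end region of D6Wsu163e, chr6:126944187-126944468, had 72.5, 93.5, 55.9 and 43.8 in vehicle against 8.13, 11.7, 8.35 and 10.0 in iMSBmal1KO, 6.95-fold lower. In intron 5 of Chmp5, an ESCRT-III gene of membrane remodelling, chr4:40957593-40957946 had 123, 97.6, 102 and 68.8 against 13.3, 12.5, 23.9 and 13.8, 6.17-fold lower. At a start of Ces1d, a carboxylesterase that hydrolyses lipids, chr8:93197803-93198134 had 198, 189, 168 and 68.8 against 22.3, 25.9, 22.7 and 45.2, 5.38-fold lower. Ces1d shows the weight of single libraries, with vehicle library 4 the lowest and iMSBmal1KO library 4 the highest of their groups. Low signal lay behind an intergenic region, chr2:129865059-129865162, with 23.5, 25.7, 22.9 and 18.8 against 5.56, 5.02, 0 and 2.51. The same holds for the start of Gm16897, chr1:194977660-194977716, with 14.9, 31.9, 24.1 and 25.01 against 2.57, 5.02, 1.19 and 8.78. Another pair among the lowest ratios, in Smyd3, a lysine methyltransferase gene, and Gm49235, a processed pseudogene, rested on vehicle library 4 and is described further on.

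**Figure D2:**
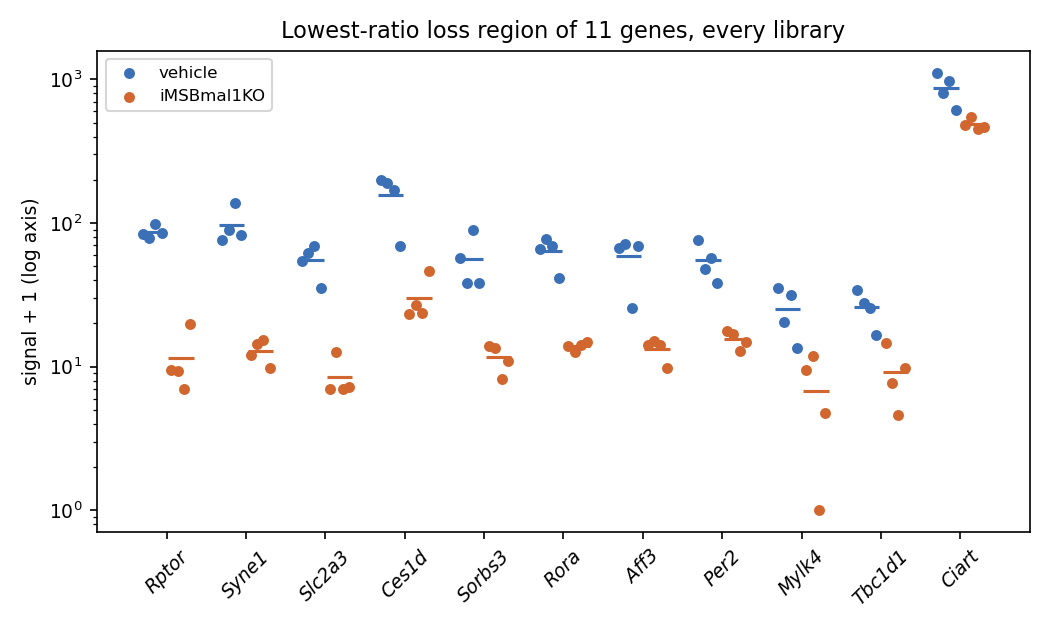
Signal + 1 (vertical, log axis) in each of the 8 libraries for the lowest-ratio loss region of 11 genes, with blue points for vehicle, orange points for iMSBmal1KO and a bar for the mean of 4 libraries. The groups are widely apart at Syne1 (8.01-fold) and Rptor (8.24-fold) and closer at Ciart (1.81-fold), and a Mylk4 value of 0 is drawn at the bottom.

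The loss regions with the most signal were a different set, and region signal is not divided by length. The longest of those named is the Ciart region. A start region of Sorbs3, chr14:70206069-70206915, had 1291, 1581, 1178 and 1119 in vehicle and 561, 742, 675 and 675 in iMSBmal1KO, 1.95-fold lower with a wide gap. Sorbs3 encodes vinexin, an adaptor that binds vinculin at cell adhesions. A 5′ UTR exon region of Clip1, which encodes a protein of growing microtubule ends, chr5:123670771-123671458, had 1005, 792, 846 and 685 against 354, 462, 512 and 587, 1.74-fold lower. The folds at Sorbs3, Clip1 and Ciart were below the median of the loss regions.

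The remaining 2 of the 5 strongest followed vehicle library 4. An intergenic region, chr2:69355538-69355846, had 432, 351, 944 and 2286 in vehicle and 194, 269, 341 and 289 in iMSBmal1KO. A region at the end of Gm48258, chr12:59262924-59263272, had 817, 651, 1597 and 3239 against 366, 465, 651 and 615. Gm48258 is listed as a processed pseudogene, a copy of a transcript, and how reads were shared between near-identical copies is not given in the sources used here. In 15 loss regions (1.78%) vehicle library 4 exceeded 3 times the median of the other vehicle libraries, as it did in 361 eligible regions (0.610%). These 15 held 16.0% of the loss regions' signal in vehicle library 4. Their median ratio was 0.341, and 0.541 with vehicle library 4 left out. Besides both regions above they included Smyd3, with 14.9, 13.4, 26.7 and 103 in vehicle against 5.14, 1.67, 5.96 and 10.0. Gm49235 had 11.7, 9.25, 11.4 and 100.1 against 5.56, 7.53, 3.58 and 2.51.

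In 8 loss regions (0.947%) the libraries of both groups fell in the order of their mitochondrial share, as they did in 205 eligible regions (0.346%), and 5 of the 8 were among the 15 high in vehicle library 4. These were the intergenic region and Gm48258 above, another intergenic region on chromosome 7 and the start regions of Gm50174 and BC031181. At the chromosome 7 region, chr7:111797513-111797709, the signal was 196, 169, 541 and 1335 in vehicle and 97.2, 125, 163 and 154 in iMSBmal1KO. The part of mitochondrial DNA in these values was not tested. Without the 15 regions the loss regions added up to 54006, 48325, 52233 and 45215 in vehicle and 21399, 24105, 23060 and 24989 in iMSBmal1KO. The rule fixes that a sum over any loss regions separates the groups.

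By annotated section, loss regions lay mostly away from transcription starts. Regions annotated as transcription start made up 106 of the 845 (12.5%, 95% Wilson interval 10.5% to 14.9%), against 32.7% of eligible regions and 18.6% of gain regions. Introns held the largest part, with 122 (14.4%) in the first intron and 198 (23.4%) in later ones, against 9.91% and 16.6% of eligible regions. Gain regions had 8.35% and 20.3% there. For later introns the 95% Wilson intervals of loss regions (20.7% to 26.4%) and gain regions (18.4% to 22.3%) overlapped. Intergenic regions made up 200 (23.7%) against 19.9% of eligible and 30.5% of gain regions. The rest comprised 90 in 5′ UTR exons (10.7%), 42 in coding exons (4.97%), 33 in 3′ UTR exons (3.91%) and 54 at transcript ends (6.39%), against eligible shares of 8.64%, 4.17%, 2.73% and 5.34%. The median distance to the listed start was 12662 bp for loss regions, 2170 bp for eligible regions and 9110 bp for gain regions. Counted per section, 0.548% of eligible start regions met the rule, against 1.69% to 2.08% in each other section.

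Start regions carry more signal than others, and strong regions met the rule less often, so the shares were also taken within ranges of signal. At vehicle means of 20 to 50, start regions were 11.7% of loss regions and 23.8% of eligible regions. At 50 to 100 they were 11.6% and 28.0%, and at 100 or more 18.8% and 50.03%. In every range the start share was lower among loss regions. Intervals here cover counting error only, and 346 loss regions (40.9%) abutted another region of the table, as did 46.2% of eligible regions, so neighbours are not independent.

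**Figure D3:**
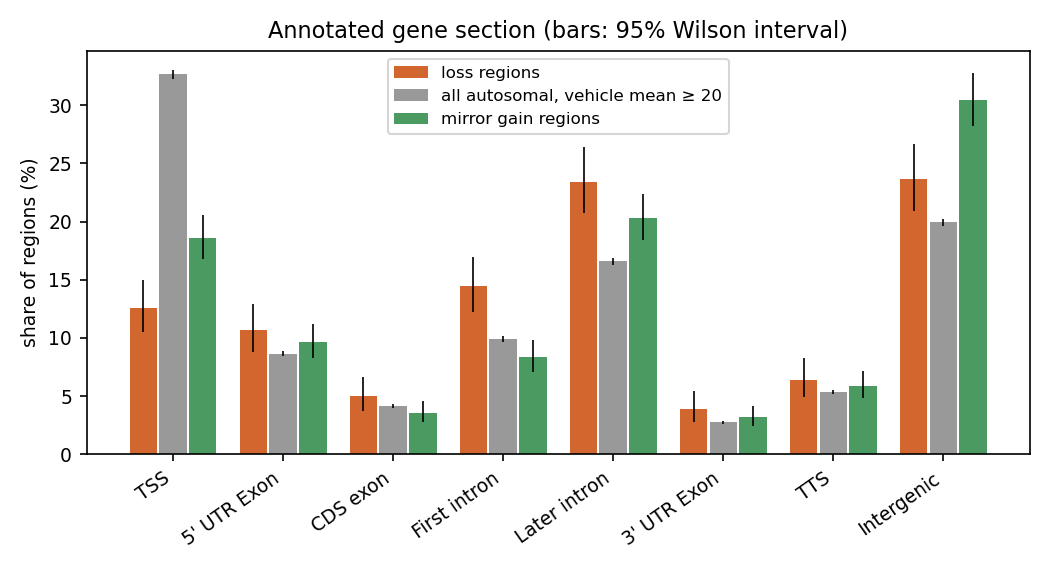
Share of regions (vertical, %) in each annotated gene section for the 845 loss regions, the 59191 eligible regions and the 1592 mirror gain regions, with 95% Wilson intervals. The transcription start share is 12.5% for loss regions and 32.7% for eligible regions, and the intron shares are higher for loss regions than for eligible regions. For later introns the intervals of loss and gain regions overlap.

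The table annotated 645 loss regions to 510 genes and 200 as intergenic. Of the annotated ones 88.1% lay in protein-coding genes, against 88.4% of eligible regions, with 31 in lincRNA genes and 22 in antisense genes. A single loss region was listed for 430 genes, 2 for 52 genes and 3 or more for 28. By chromosome the share of eligible regions that met the rule was highest on chromosome 14 (51 of 2116, 2.41%) and chromosome 13 (46 of 2232, 2.06%) and lowest on chromosome 19 (21 of 2050, 1.02%). The genes with the most loss regions, Mylk4 on chromosome 13 and Sorbs3 on chromosome 14, hold 17 and 9 of those counts.

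Mylk4, a member of the myosin light chain kinase family, held 17 loss regions among 37 eligible and 100 listed regions. They lay in introns 1, 2, 3, 5, 9 and 10, in coding exons 5 and 6 and in the 3′ UTR exon, and none at its start. The strongest, in coding exon 5, chr13:32721792-32722159, had 225, 185, 177 and 131 in vehicle and 111, 105, 94.2 and 90.3 in iMSBmal1KO, 1.79-fold lower. The others had vehicle means of 20.02 to 57.2. The lowest ratio was at an intron 2 region, chr13:32779033-32779095, with 34.1, 19.5, 30.5 and 12.5 against 8.56, 10.9, 0 and 3.76. An intron 3 region, chr13:32723752-32723982, had 43.7, 59.6, 47.0 and 62.5 against 12.4, 14.2, 22.7 and 22.6. The lowest vehicle value was 1.93 times the highest iMSBmal1KO value there, against 1.18 times in coding exon 5.

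The lower signal in Mylk4 was spread over the gene. Of its 36 tested regions that did not meet the rule, 32 had a negative log2 change, with a median of -0.58, against a median of 0.12 for all tested regions. Added over its 100 regions the signal was 4718, 3967, 4014 and 2473 in vehicle and 2036, 2857, 2184 and 2756 in iMSBmal1KO. Vehicle library 4 lay below 2 of the iMSBmal1KO libraries in this sum, so the groups overlapped. The regions that missed the rule added up to 3832, 3187, 3273 and 1914 against 1758, 2497, 1895 and 2440. Most Mylk4 loss regions joined in a cluster of 18, with gaps of at most 10 kb, over 45.4 kb of chr13:32698021-32743428 that also took in intergenic members. That stretch held 82 regions, and 60 of the 64 that did not meet the rule had a lower mean after knockout, although 51 of these 64 had a vehicle mean under 20. Its summed signal was 1965, 1881, 1639 and 1072 in vehicle and 641, 881, 729 and 917 in iMSBmal1KO. Cluster sums include the loss regions that define the cluster, so their separation is a description only. A separate cluster of 3 in the same gene, chr13:32775064-32779193, had sums of 511, 436, 391 and 310 against 291, 294, 259 and 324, and here the groups overlapped.

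Sorbs3 held 9 loss regions among 13 eligible and 36 listed regions, and the predicted gene Gm49417, whose regions lie between and beside those of Sorbs3, held 6 among 6 eligible and 9 listed. Added over the 36 Sorbs3 regions the signal was 2972, 3183, 2941 and 2479 in vehicle and 1166, 1520, 1350 and 1473 in iMSBmal1KO (2894 ± 296 against 1377 ± 158, SD, n = 4 each). Most of that sum came from the loss regions, whose separation the rule fixes. The Sorbs3 regions that missed the rule added up to 308, 323, 302 and 288 in vehicle and 189, 220, 177 and 183 in iMSBmal1KO. A further start region, chr14:70208301-70208526, had 417, 389, 452 and 288 against 86.0, 119, 88.3 and 162, 3.40-fold lower. The lowest ratio of the gene was beside it, chr14:70208243-70208301, with 56.5, 37.3, 88.3 and 37.5 against 12.8, 12.5, 7.16 and 10.0, 5.16-fold lower. A coding exon 16 region, chr14:70190843-70191096, had 27.7, 19.5, 43.2 and 68.8 against 11.1, 13.4, 13.1 and 11.3. The remaining Sorbs3 regions also pointed down, with 7 of 9 tested regions that missed the rule negative and a median log2 change of -0.59.

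Around the starts listed for Sorbs3 and Gm49417, chr14:70204308-70208820, 11 of the 14 regions in 4.51 kb were loss regions. The sums were 2907, 3047, 2877 and 2264 in vehicle and 1023, 1396, 1242 and 1360 in iMSBmal1KO, 2774 ± 348 against 1255 ± 168 (SD, n = 4 each). In Gm49417, chr14:70208664-70208820 in coding exon 4 had 133, 87.3, 160 and 56.3 against 17.98, 43.5, 33.4 and 27.6. Within the same part of chromosome 14 lay another cluster of 3 in Gm49417, chr14:70219720-70221039, in which all 3 regions of the stretch met the rule. Its sums were 167, 152, 163 and 116 against 66.8, 66.9, 54.9 and 48.9. A cluster of 3 at Pdlim2, which encodes an actin-associated PDZ-LIM protein, and beside it, chr14:70177534-70179557, had sums of 127, 133, 144 and 84.4 against 44.5, 51.0, 39.4 and 37.6. Reads of overlapping genes cannot be told apart, and the strand is not part of this assay.

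**Figure D4:**
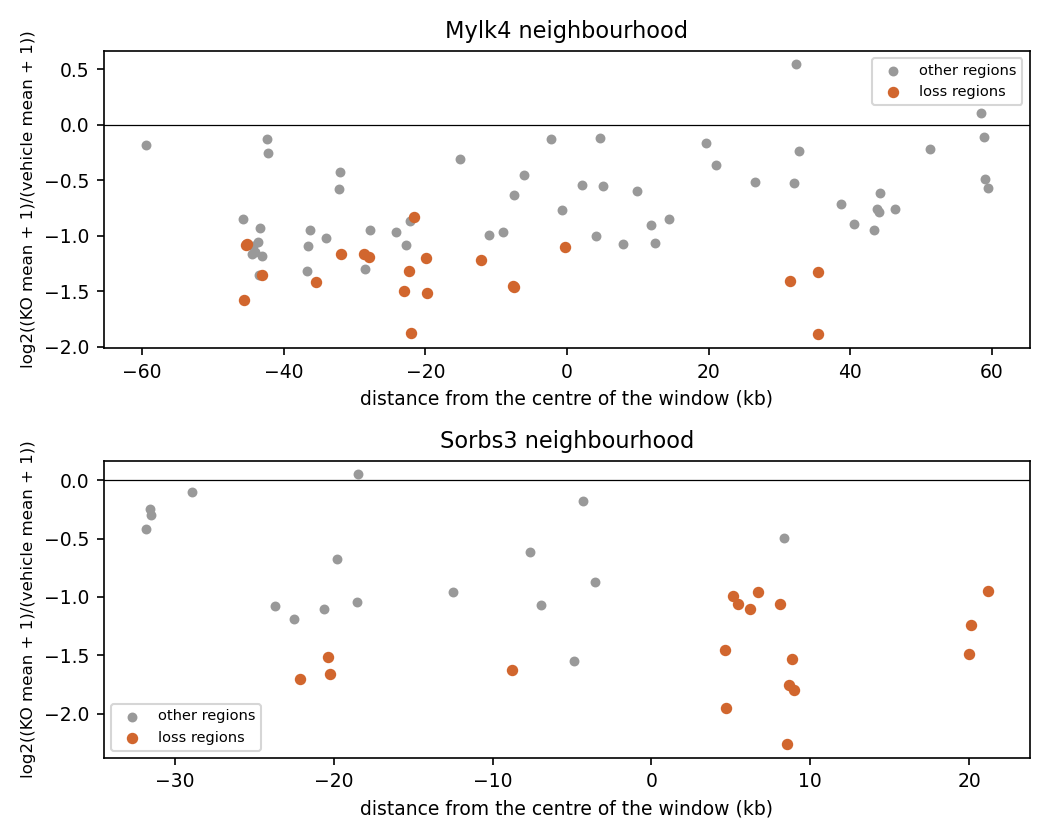
Log2 ratio of the iMSBmal1KO mean + 1 to the vehicle mean + 1 (vertical) by distance from the window centre in kb (horizontal), for windows 25 kb beyond the loss regions of Mylk4 and of Sorbs3. Grey points are regions that missed the rule, drawn where both group means add to at least 20. Nearly all grey points lie below 0 in both windows. In the Sorbs3 window 11 loss regions gather in a stretch of 4.51 kb, and others lie outside it.

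Over the autosomes, joining loss regions with gaps of at most 10 kb gave 725 places. Of these 649 held a single region and 76 were clusters, 59 of 2, 14 of 3 and 3 of 4 or more, with 196 loss regions (23.2%) in all. There were 49 clusters inside a single gene and 17 made of intergenic regions alone. The remaining cluster of 4 or more lay at and beside Igfbp5, an insulin-like growth factor binding protein gene, over 16.0 kb of chr1:72855954-72871945. It held 7 loss regions of 24, with sums of 714, 638, 584 and 497 in vehicle and 448, 385, 397 and 395 in iMSBmal1KO, separate but close. Of its 17 other regions 16 had a lower mean after knockout. The lowest ratio in it was at an intergenic region, chr1:72857155-72857302, with 50.1, 23.6, 28.0 and 28.1 against 15.4, 2.51, 15.5 and 6.27.

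Several compact clusters had wide gaps between the groups. In intron 2 of Syne1, 3 of 7 regions over 0.903 kb, chr10:5190823-5191726, met the rule, and the sums were 188, 217, 292 and 128 in vehicle and 48.4, 46.0, 38.2 and 32.6 in iMSBmal1KO (206 ± 67.9 against 41.3 ± 7.24, SD, n = 4 each). The rest of Syne1 differed little, with 20 of 36 other tested regions negative and a median log2 change of -0.02. In intron 5 of Aff3, which encodes a nuclear protein of the AF4 family, 3 of 8 regions over chr1:38491502-38502467 met the rule, with sums of 384, 279, 280 and 241 against 63.3, 82.0, 93.0 and 91.6. The strongest Aff3 region, chr1:38495388-38495559, had 189, 129, 152 and 90.7 against 24.8, 35.1, 41.7 and 37.6, 4.03-fold lower. Over all 123 Aff3 regions the sums were 1307, 1291, 1245 and 1213 against 847, 848, 895 and 972, and over those that missed the rule 1016, 1068, 1030 and 1035 against 800.4, 789, 835 and 918.

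At Slc2a3, 3 of 6 regions over chr6:122795467-122801382 met the rule, with sums of 398, 417, 386 and 272 against 102, 144, 156 and 193. Its intron 2 region, chr6:122795467-122795892, had 324, 324, 261 and 216 against 82.6, 119, 143 and 171, 2.18-fold lower and with a narrower gap than its 5′ UTR exon region. At the start of Gm16897, 3 of 4 regions met the rule, with sums of 114, 140, 126 and 128 against 41.9, 40.1, 48.9 and 56.4. Aebp1, a gene of extracellular matrix biology, had 3 of 3 regions in intron 1, chr11:5862635-5863180, with sums of 532, 400, 367 and 366 against 136, 171, 169 and 215. Mitf and Jak2, which encode a transcription factor and a cytokine receptor kinase, had 3 regions each in compact clusters. The Mitf sums were 134, 141, 160 and 81.3 against 43.7, 47.7, 46.5 and 74.0, and the Jak2 sums 220, 256, 182 and 178 against 147, 76.1, 84.7 and 74.0. In Jak2 a single library, iMSBmal1KO library 1, came near the vehicle values. In Mitf the groups nearly met, with 81.3 in vehicle library 4 and 74.0 in iMSBmal1KO library 4. Of the other tested regions, 8 of 21 were negative in Mitf (median log2 change 0.18) and 7 of 18 in Jak2 (0.19).

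**Figure D5:**
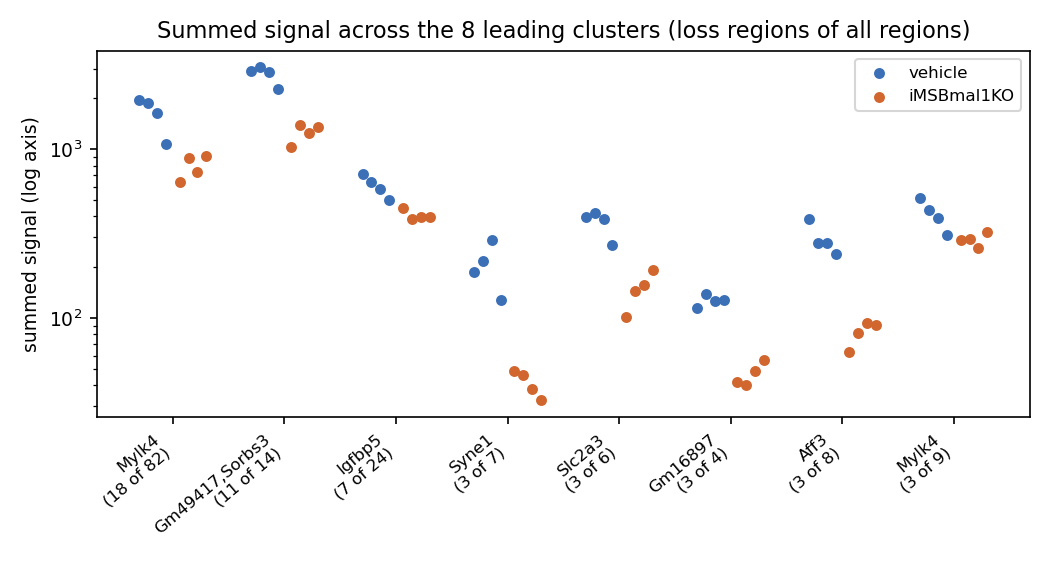
Summed signal of all regions (vertical, log axis) in each library for 8 clusters, with blue points for vehicle and orange points for iMSBmal1KO, and the number of loss regions of all regions under each name. The groups separate widely at Syne1 (3 of 7) and Aff3 (3 of 8), narrowly at Igfbp5 (7 of 24), and overlap at the smaller Mylk4 cluster (3 of 9).

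Mapre2, Macrod1, Pitpnm2 and Galnt2l held 4 loss regions each, spread more thinly. Mapre2, which encodes a microtubule end-binding protein, had 4 of 24 eligible regions, and the lowest ratio, in intron 3, had 48.0, 38.0, 47.0 and 18.8 against 8.13, 9.20, 4.77 and 10.0. Macrod1, an ADP-ribosylhydrolase gene, had 4 of 47, all in intron 3, of which chr19:7091074-7091329 had 18.1, 14.4, 28.6 and 21.9 against 5.14, 12.5, 7.16 and 10.0. Pitpnm2, a gene of phosphatidylinositol transfer, had 4 of 28, and its strongest, a 5′ UTR exon region at chr5:124221479-124221844, had 352, 349, 310 and 278 against 140, 161, 125 and 119. The groups were far apart at this Pitpnm2 region and nearly met at the Macrod1 region. Galnt2l had 4 of 92, but the table lists 773 regions under this name, and its 4 loss regions lay more than 3 Mb apart at the extremes, so the assignment to this gene is uncertain. Its intron 1 region chr8:123785810-123785960 had 26.6, 20.5, 29.9 and 53.2 against 8.99, 14.2, 10.7 and 16.3.

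Genes that held a loss region were not lower throughout. Their other 9670 tested regions were 50.04% negative, with a median log2 change of -0.00, while all tested regions were 38.3% negative with a median of 0.12. In the 28 genes with 3 or more loss regions the other 1138 regions were 58.3% negative with a median of -0.08, and without Mylk4, Sorbs3 and Gm49417 the values were 57.1% and -0.06 over 1093 regions. The median over all regions moved to 0.01 with loess scaling, so signs this close to 0 depend on the scaling. There were 46 genes with both a loss and a gain region, of 510 with a loss and 929 with a gain. Galnt2l had 4 of each, Pitpnm2 had 4 losses and 2 gains, and Rptor had 2 of each.

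Among the 24 genes of a clock list, 5 held 8 loss regions, 3.81% of the list's 210 eligible regions, against 1.43% of all eligible regions. The list also held 23 gain regions, more than its loss regions, where the mirror rule took 2.55% over all. Eligible regions are defined by the vehicle mean, so no share of the list is given for gains. On the repressor side, Per2, whose protein with CRY inhibits BMAL1 and CLOCK, had a 5′ UTR exon region, chr1:91457888-91458060, with 75.7, 47.3, 55.9 and 37.5 in vehicle and 16.7, 15.9, 11.9 and 13.8 in iMSBmal1KO, 3.71-fold lower. A weaker Per2 region, chr1:91458583-91458677, had 18.1, 19.5, 22.9 and 34.4 against 17.5, 12.5, 13.1 and 11.3, where the groups nearly touched. Nr1d2, which encodes the repressor REV-ERBβ, had 27.7, 40.1, 25.4 and 18.8 against 17.98, 14.2, 16.7 and 17.6 in a 5′ UTR exon, chr14:18234493-18234611, also nearly touching. Nr1d2 held 1 gain region as well. Ciart is described above.

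Rora, which encodes a nuclear receptor that activates Bmal1, had 2 loss regions in intron 1. At chr9:68687572-68687763 the values were 65.0, 76.0, 68.6 and 40.6 against 12.8, 11.7, 13.1 and 13.8, 4.86-fold lower, and the iMSBmal1KO libraries lay within a narrow band. At chr9:69034430-69034570 they were 45.8, 25.7, 22.2 and 34.4 against 17.1, 9.20, 9.54 and 13.8. Rora has 62 eligible regions, and its tested regions had a median log2 change of 0.03. The output gene Dbp had 2 of 19. At its intron 1, chr7:45705824-45706031, the values were 124, 84.2, 104 and 128 against 58.2, 51.0, 64.4 and 67.7, and at a nearby start, chr7:45706063-45706224, 116, 91.4, 153 and 103 against 71.9, 66.9, 58.4 and 69.0. The rest of Dbp differed little, with 12 of 21 other tested regions negative and a median log2 change of -0.06.

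The list of nuclear envelope genes held 6 loss regions among 80 eligible (7.5%, against 1.43% of all eligible regions) and 0 gain regions, where the mirror rule took 2.55% over all. Besides the 3 in Syne1, Lmnb1, the gene of lamin B1, had 2 and Tmpo, the gene of the lamina-associated LAP2 proteins, had 1. The lower Lmnb1 ratio was in intron 7, with 17.1, 26.7, 32.4 and 37.5 against 11.98, 9.20, 7.16 and 8.78. The Tmpo region, at a transcript end, chr10:91164644-91164882, had 187, 125, 226 and 125 against 68.1, 102, 64.4 and 74.0. Since Syne1 was already known from these data when the list was made, its count supports nothing by itself.

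Genes of sarcomeres and Z-discs held 11 loss regions among 630 eligible (1.75%, near the 1.43% of all eligible regions). Of the 11, 9 were in Sorbs3. The list also held 19 gain regions, where the mirror rule took 2.55% over all. It was made with earlier results of these data known, so its count supports nothing by itself. Tnni1, slow troponin I, had a 5′ UTR exon region, chr1:135793676-135793918, with 22.4, 23.6, 33.0 and 34.4 against 18.4, 13.4, 14.3 and 18.8. Tnnt3, fast troponin T, had chr7:142499887-142499952 with 19.2, 21.6, 26.1 and 25.01 against 15.0, 15.9, 7.16 and 16.3. Both were weak regions with narrow gaps. Of 240 eligible regions of calcium-handling genes 4 met the rule (1.67%), beside 5 gain regions where the mirror rule took 2.55% over all. Of the 4, 3 were in coding exons of Ryr1, the calcium release channel of the sarcoplasmic reticulum. The Ryr1 region in coding exon 10, chr7:29110892-29111011, had 30.9, 31.9, 29.2 and 28.1 against 15.4, 8.36, 13.1 and 22.6. The Jph2 region, in a gene of junctional membrane complexes, chr2:163381586-163381699, had 20.3, 27.7, 28.6 and 37.5 against 18.8, 5.85, 15.5 and 10.0. The share of the calcium-handling list was near the 1.43% of all eligible regions.

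For glucose use, 3 of 132 eligible regions met the rule (2.27%, near the 1.43% of all eligible regions) and all were in Tbc1d1, whose protein restrains the movement of glucose transporters to the surface. At chr5:64288148-64288291 in intron 12 the signal was 33.0, 26.7, 24.8 and 15.6 against 13.7, 6.69, 3.58 and 8.78. At chr5:64247727-64248400 in intron 2 it was 104, 121, 132 and 116 against 49.7, 51.8, 71.6 and 76.5, a clear gap. The sum of all 164 Tbc1d1 regions overlapped between groups, with 6860, 5788, 6317 and 4387 in vehicle and 3263, 4995, 4771 and 5147 in iMSBmal1KO. Vehicle library 4 was again the low one.

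Genes of mTOR and insulin signalling held 4 of 201 (1.99%, near the 1.43% of all eligible regions) with 4 gains. The mirror rule took 2.55% over all. The loss regions were the Rptor region above that is annotated as a start, a weak Rptor region in a 3′ UTR exon and intronic regions of both receptors. The 3′ UTR exon region, chr11:119859357-119859728, had 25.6, 20.5, 24.1 and 15.6 against 11.1, 9.20, 13.1 and 15.1. Igf1r had 28.8, 26.7, 21.6 and 28.1 against 11.98, 13.4, 11.9 and 20.1 at chr7:68216095-68216204. Insr had 27.7, 27.7, 28.6 and 18.8 against 18.4, 17.6, 14.3 and 11.3 at chr8:3261919-3262042, the narrowest gap of these. At the start of Gps2, which encodes a subunit of a transcriptional corepressor complex, chr11:69913355-69913558 had 26.6, 33.9, 32.4 and 56.3 against 21.8, 20.9, 17.9 and 18.8.

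Marker genes of other cell types had few eligible regions. Lists for satellite cells, fibro-adipogenic cells, macrophages, adipocytes, nerve and Schwann cells and the neuromuscular junction held 0, of which the junction list alone had more than 8 eligible regions (38). Gain regions in these lists numbered 7 for the junction, 2 for macrophages and 1 for satellite cells, where the mirror rule took 2.55% over all. With so few eligible regions and a loss share of 1.43% over all eligible regions, nothing about these cell types is read from either count. The endothelial list held 1 of 10, in Tek, an endothelial receptor, with 17.1, 21.6, 15.3 and 28.1 against 15.0, 9.20, 3.58 and 12.5. Within 1000 bp of their starts, 6 fibre markers had summed signals of 7170 to 12174 in vehicle and 9186 to 10904 in iMSBmal1KO. The sums were 84.2 to 123 and 85.9 to 107 for satellite cells, 360 to 542 and 411 to 559 for fibro-adipogenic cells, 59.7 to 90.7 and 66.5 to 89.9 for endothelial cells, 3.13 to 7.46 and 5.14 to 12.5 for macrophages and 9.25 to 19.7 and 10.7 to 15.5 for adipocytes. A control set not expected in muscle, mainly Ins2, was separate, with 95.9 to 106 in vehicle and 136 to 162 in iMSBmal1KO. Ranges of the groups overlapped for each of the other types, and the macrophage marker Adgre1 and the adipocyte marker Adipoq had no region there. Fewer nuclei of a type and less open DNA per nucleus cannot be told apart in whole muscle.

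The thresholds cut through a continuous range. Just inside the ratio limit were Klf13 (0.5994), an intergenic region of chromosome 3 (0.5996) and Sel1l2 (0.5999), and just outside an intergenic region of chromosome 2 and Trp53rkb (0.6003 each) and a Pitpnm2 region (0.6006). Klf13, the gene of a Krüppel-like factor, had 411, 360, 341 and 341 at its start against 149, 237, 235 and 250, a clear gap at the edge of the rule. Just inside the limit on the vehicle mean were Castor1 and Zmiz1 (20.01 each) and a Mylk4 region (20.02), and just outside Map2k2 (19.94), Lrp6 (19.89) and an intergenic region of chromosome 7 (19.88). A Map2k2 region missed the rule with 13.9, 14.4, 13.98 and 37.5 against 8.13, 11.7, 13.1 and 5.02, while the Mylk4 region at chr13:32736152-32736242 met it with 20.3, 19.5, 18.4 and 21.9 against 4.28, 7.53, 5.96 and 8.78.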

How the data were processed

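Each of 8 ATAC-seq libraries was given as a column of signal in a table the authors deposited, with 1 set of regions for all libraries, gene annotation, and the length and distance to the start of each region (other deposited columns). Per the submitters' processing notes, Partek, Bowtie2, MACS2 and DESeq2 were used and the builds mm10 and GRCm39 are named, with no roles. Duplicate removal, the shift of reads for the transposase and the scaling are not given in the sources used here. Of the deposited signal values above 0, 98.3% to 99.8% per library were whole multiples of a step (tolerance 0.02 reads), so signal divided by the step was taken as read equivalents, without a claim of recovered reads. Values of at most 0.01 of a read were left out of this count of whole multiples and otherwise kept as deposited. Depth was 4.31 to 29.5 M read equivalents (M, units of 1e+06). At this depth the vehicle library with the fewest reads held a median of 11 over the loss regions, and weak regions carry wide counting error. Reads are not unique molecules, so intervals cover counting error only.

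The table names no build. Of 27552 gene names, 82.7% matched RefSeq GRCm38.p6. Of the matched genes 99.9% overlapped their RefSeq place, and 80.5% shared a bound within 100 bp, so promoter windows of that assembly were used. Coordinates are as the table lists them, and RefSeq stretches are counted from 1.

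The loss rule was applied to the deposited signal. A limma-trend fit with robust moderation (limma 3.58.1, R 4.3.3) on log2(signal + 1) used regions with a signal of at least 10 in at least 4 libraries and Benjamini-Hochberg adjustment over all 130084. Log2 changes are on that scale. The fit was tested on simulated data. Everything else used Python 3.11.15, pandas 2.3.3 and matplotlib 3.10.9. The labels do not say more of replicates than their numbers, so spreads are between these samples. Same-numbered libraries did not deviate together, with correlations of deviations of -0.06, 0.14, 0.03 and 0.03.

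The members and gene lists were chosen with earlier results of these data known. Named by a fixed rule were the 10 lowest ratios and 5 highest vehicle means (1 per gene), up to 10 genes with 3 or more loss regions and clusters of 4 or more with the lowest ratio of each, loss regions of the gene lists (up to 4 per list), and the 3 regions on each side of each limit. The promoter regions, the regions high in vehicle library 4, Aff3, Pdlim2, Aebp1, Mitf, Jak2, further regions of Mylk4, Sorbs3, Gm49417, Slc2a3, Igfbp5, Dbp, Per2, Nr1d2, Tmpo, Tnni1 and Tnnt3 beyond that rule, and the genes drawn in figures were chosen after their values were seen. Alternatives were other scalings, limits, filters and pseudocounts, the replicate block and leaving out each library. A gene of the lists with loss regions is counted in the totals over all regions and is not reported here by itself.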

Additional observations from a re-analysis of the deposited data

Results flagged for a closer look

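Within groups of 4 libraries, a value far from the other 3 was looked for among 112 group values of the named regions and summaries, and 8 were found. Chance gives about 1 in 20. In vehicle, library 4 was high at Smyd3 (103, others 13.4 to 26.7) and at Gm49235 (100.1, others 9.25 to 11.7) and low at Insr (18.8, others 27.7 to 28.6). Vehicle library 1 was high at the intergenic region of chromosome 1 beside Igfbp5 (50.1, others 23.6 to 28.1). In iMSBmal1KO, library 2 was high at Slc2a3 (11.7, others 5.96 to 6.27), library 3 at Chmp5 (23.9, others 12.5 to 13.8) and library 4 at Ces1d (45.2, others 22.3 to 25.9). The median signal over all loss regions was low in iMSBmal1KO library 3 (14.3, others 15.0 to 15.1). With vehicle library 4 left out, the log2 ratio was -1.68 at Smyd3 and -1.17 at Gm49235, where it was -2.79 in both with all libraries.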

How the results depend on the processing

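The number of loss regions, 845, was 1442 with equal autosomal totals, 732 with median-of-ratios factors, 472 at a ratio of at most 0.5, 2490 at a vehicle mean of at least 10 and 239 at 50. It was 830 without the regions high in vehicle library 4, an alternative chosen after seeing the data. It ran from 1106 to 1592 with single libraries left out, where fewer values must separate by construction, and between 706 and 809 of the 845 were kept. The count called lower by limma, 70, was 106 without the filter, 242 with loess scaling and 24 at an adjusted p under 0.01, and 16 to 171 with single libraries left out. With the replicate block it was 67, of which 50 were shared. Whether the replicate numbers pair the samples is not given in the labels. Clusters numbered 55 with gaps of at most 1 kb and 118 at 50 kb. Of 490 alternative values for the 49 named regions, 2 moved by 1 SD or more, Smyd3 and Gm49235 without vehicle library 4. The rule fixes the sign when a library is left out. Depth limits the weak regions most, since 337 loss regions had a vehicle library with fewer than 10 reads. Where counts moved, the cause was not tested.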

Other observations

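Outside chromosomes 1 to 19 the same limits were met by 9 regions, 8 of them on chromosome X. The lowest ratio was at an intergenic region, chrX:10758949-10759190, with 98.1, 57.5, 74.4 and 53.2 in vehicle libraries 1 to 4 and 6.85, 14.2, 8.35 and 7.53 in iMSBmal1KO libraries 1 to 4, 7.66-fold lower in the mean. A start region of Mid1ip1, a gene of fatty acid synthesis, chrX:10717209-10717657, had 357, 359, 333 and 238 against 155, 182, 165 and 161, 1.94-fold lower. A start region of Gm14493, chrX:10719203-10719346, had 36.2, 50.3, 27.3 and 59.4 against 18.8, 20.1, 9.54 and 12.5, 2.84-fold lower. The gap between the groups was wide at the intergenic region and narrower at both start regions. Srpk3, a muscle protein kinase gene, had a region in intron 4, chrX:73775203-73775315, with 51.2, 43.2, 66.7 and 53.2 against 19.7, 39.3, 32.2 and 32.6, 1.73-fold lower.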
